A study of Mus musculus with 18 samples.

Results

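The genes described here are 10 enzymes and partner proteins that hydroxylate and crosslink collagen, measured as mRNA in 4T1 mouse mammary carcinoma cells with lowered DAP5. They were taken by gene symbol from the deposited count tables (P4ha1, P4ha2, P4hb, P3h1, P3h4, Plod1, Plod2, Plod3, Lox and Loxl2), and all 10 were found among the 35976 symbols of each library. 4T1 is a cultured line from BALB/c mice, and the labels class it as triple-negative. The shDap5 arm carried a hairpin against Dap5, whose gene symbol is Eif4g2; the other arm is labelled NSi, read here as a non-silencing control. Both arms received doxycycline at 2 µg/ml for 6 days, and polyadenylated RNA was sequenced from input, read here as unfractionated lysate, and from light and heavy polysomes pooled from sucrose gradients. The 6 groups were shDap5 input, NSi input, shDap5 light, NSi light, shDap5 heavy and NSi heavy, with 3 libraries each and 18 in all. Uninduced cells were not analysed here, so an arm difference older than the induction and one caused by it cannot be told apart. Nothing in the labels ties the 3 libraries of a group to independent cultures; the p-values therefore reflect library-to-library spread, which may be technical.

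Collagen chains are modified in the endoplasmic reticulum before they fold into a triple helix. Prolyl 4-hydroxylase, a complex of alpha subunits (P4ha1, P4ha2) with the beta subunit P4hb, makes the hydroxyproline that keeps the helix stable at body temperature, and prolyl 3-hydroxylase (P3h1) modifies a few further prolines. Lysyl hydroxylases (Plod1, Plod2, Plod3) prepare lysines for sugar attachment and for crosslinks, and outside the cell lysyl oxidases (Lox, Loxl2) start the crosslinks that stiffen the matrix. In breast carcinoma these enzymes are known for their part in matrix stiffening and spread, and P4ha1, P4ha2, Plod1, Plod2 and Lox are known targets of the hypoxia-inducible factors.

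Total counts ran from 30385863 to 71331978 per library, and 15072 genes passed the filter on low counts. Of the 10 genes, 8 passed and were tested; Lox and Loxl2 did not. Levels are CPM, counts scaled to library size with TMM factors, so each is a share of the mRNA of its own fraction. "Rose", "fell" and "called" mean a Benjamini-Hochberg adjusted p under 0.05 in edgeR's quasi-likelihood test over all tested genes. Whether the libraries of the arms overlap is only described, and the share of all tested genes without overlap was not counted. Arms also did not overlap in input for uncalled genes such as Fth1 and Erp44 (edgeR adjusted p = 0.795 and 0.758). Both were chosen after their values were seen. Eif4g2, the target of the hairpin, stood at 592, 340 and 671 CPM in shDap5 inputs, against 799, 760 and 852 CPM in NSi inputs. By edgeR it fell on light (log2 change -1.60, edgeR adjusted p = 0.00204) and heavy polysomes (-1.45, edgeR adjusted p = 0.00349), and its input difference of -0.59 was not called (edgeR adjusted p = 0.202; -0.64 and 0.00454 with the replicate number as a block within each fraction). Epithelial markers matched the label: Krt8, Krt18, Epcam and Cdh1 were each above 200 CPM in every input library, while the basal keratin Krt5 was at 0 in all but 1 of the 18 libraries. Among the input libraries shDap5 input 2 stood apart, with a chi-square per degree of freedom of 122 against shDap5 input 1 and 121 against shDap5 input 3, beside 11.05 between shDap5 inputs 1 and 3. Pairs of the same group on light and heavy polysomes ranged from 66.06 to 405.25, on both sides of the values for shDap5 input 2.

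In whole lysate of shDap5 cells, P4ha2 and Plod1 fell and P3h4 rose. P4ha2 was 3.37-fold lower and Plod1 1.84-fold lower than in NSi cells, and P3h4 was 3.09-fold higher. Thus 3 of the 8 tested genes were called in input, 2 lower and 1 higher, where 6.95% of all tested genes were called. On light polysomes P4ha2 fell and P3h4 rose, 2 of 8 genes, against 3.47% of all tested genes. On heavy polysomes P4ha2 and Plod1 fell and P3h4 rose, 3 of 8 genes, against 3.95% of all tested genes. The median log2 change of the 8 genes was -0.50 in input, -0.26 on light and -0.63 on heavy polysomes, beside 0.05, -0.02 and 0.01 over all tested genes.

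More of the genes were called when libraries of the same number were compared with each other. Likeness of same-number libraries across the arms was weaker in input (r of 0.133 to 0.375) than on light and heavy polysomes (0.507 to 0.826). The block within each fraction was added after seeing the data. With it edgeR called 6 of the 8 genes in input, 4 on light and 7 on heavy polysomes. The same fit called 22.1%, 16.1% and 18.3% of all tested genes in input, light and heavy. Of the 8 genes, 5, 3 and 6 were lower in shDap5 in input, light and heavy in this fit, and P3h4 was the 1 that was higher in each.

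**Figure D1:**
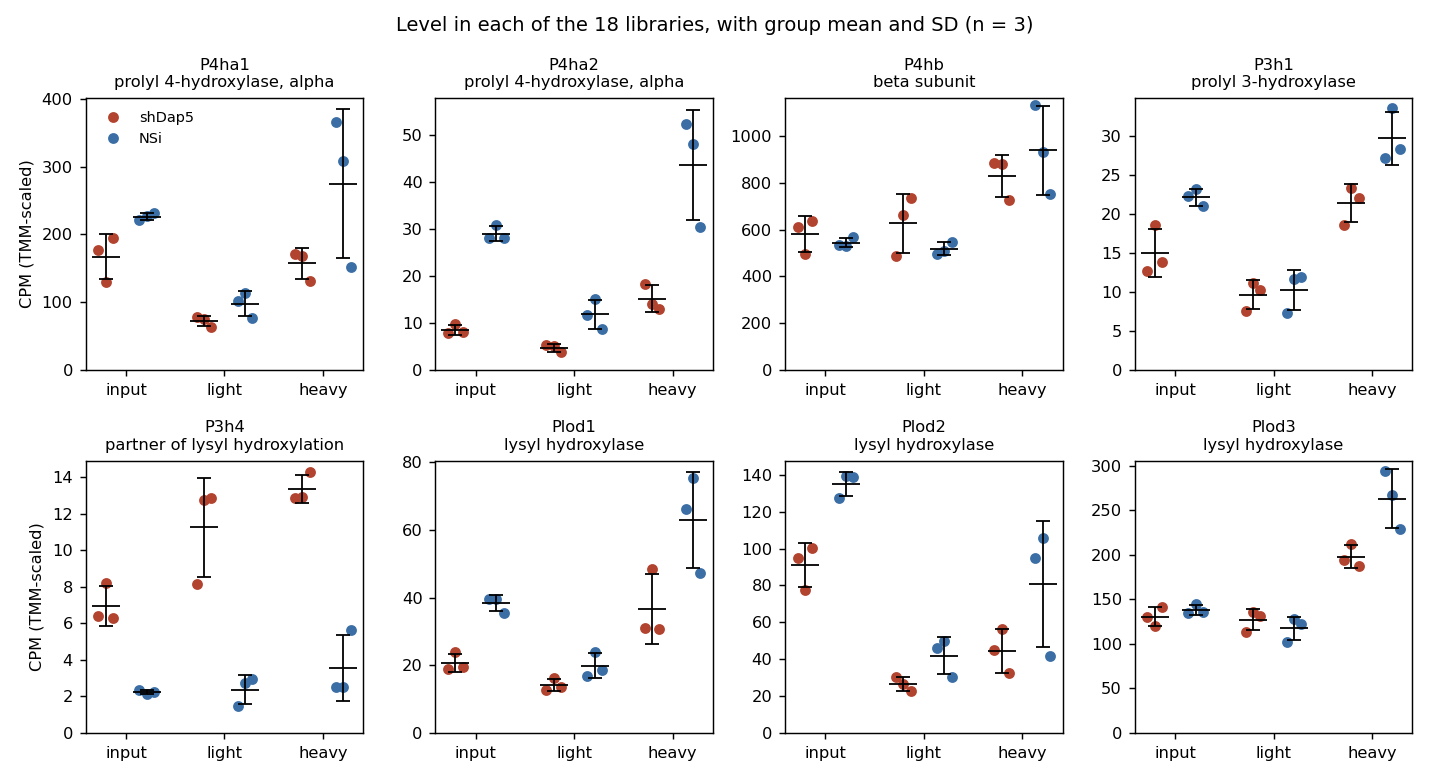
Level of each of the 8 tested genes in CPM (linear axis from 0) in all 18 libraries, by fraction and arm, with the group mean and SD (n = 3). P4ha2 lies at 7.95 to 9.82 CPM in shDap5 inputs and 28.1 to 30.9 CPM in NSi inputs, whereas P3h4 lies higher in shDap5 in all 3 fractions.

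Per kilobase of exon, the genes differed widely in level. In shDap5 inputs P4hb stood highest at 203 ± 26.1 CPM per kilobase (SD, n = 3), and in NSi inputs it stood at 190.2 ± 7 CPM per kilobase. P4hb is also a general disulfide isomerase of the endoplasmic reticulum. P4ha1 followed at 40.7 ± 8.13 CPM per kilobase in shDap5 and 55 ± 1.16 in NSi inputs. Next were Plod3 at 28.9 ± 2.35 CPM per kilobase in shDap5 and 30.6 ± 1.25 in NSi inputs, and Plod2 at 16.9 ± 2.22 in shDap5 and 25.1 ± 1.21 in NSi inputs. The other 4 tested genes lay lower. Among them P3h1 (3.9 ± 0.81 in shDap5, 5.77 ± 0.28 in NSi) and Plod1 (3.08 ± 0.39 in shDap5, 5.67 ± 0.35 in NSi) lay within their spread of each other in both arms. P4ha2 was at 1.38 ± 0.17 CPM per kilobase in shDap5 and 4.66 ± 0.26 in NSi inputs. P3h4 was at 3.19 ± 0.49 CPM per kilobase in shDap5 and 1.03 ± 0.05 in NSi inputs. Per kilobase, P4ha2 stood above P3h4 in every NSi input and below it in every shDap5 input. In raw counts P4ha2 lay above P3h4 in every shDap5 input too (605, 600 and 421 against 486, 500 and 326). Their order in shDap5 thus depends on the exon lengths used. Exon lengths came from an annotation of another build than the counts, so these levels are approximate. In bulk libraries, fewer cells that express a gene and less of its RNA per cell cannot be told apart.

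The lysyl oxidases Lox and Loxl2 were hardly detected. Lox had 0 counts in all 9 shDap5 libraries and in the 3 NSi inputs, 1, 14 and 2 counts on NSi light and 0, 1 and 1 counts on NSi heavy polysomes. Loxl2 had 3, 2 and 0 counts in shDap5 inputs, against 6, 2 and 1 in NSi inputs. On light polysomes it had 1, 0 and 1 counts in shDap5, against 4, 6 and 3 in NSi, and on heavy polysomes 5, 0 and 1 in shDap5, against 1, 0 and 1 in NSi. A count of 0 still allows 3 counts, or 0.0421 to 0.0987 CPM depending on the library; this limit covers counting error only. On light polysomes the raw counts of both genes were lower in shDap5, while in input and on heavy polysomes the arms overlapped or were both at 0. These counts are too few for an arm difference to be read from them. Both genes failed the filter on low counts, so no difference between the arms was tested.

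Promoters of 6 of the 10 genes were in the RefSeq promoter table (P4ha1, P4ha2, P4hb, P3h1, Plod1 and Plod3). The 250 bases before the gene start are shown for P4ha2 and Plod1, which fell in input, and for P4ha1, the other alpha subunit among the 10 genes. They are from build GRCm38.p6: P4ha2 at chr11:54100674-54100923 on the plus strand, P4ha1 at chr10:59323046-59323295 on the plus strand and Plod1 at chr4:147936777-147937026 on the minus strand. Capitals mark ACGTG, the core of the hypoxia response element, and its relative GCGTG on either strand, so that CACGT and CACGC are the same motifs read from the other strand. ACGTG also lies within the E-box CACGTG.
P4ha2: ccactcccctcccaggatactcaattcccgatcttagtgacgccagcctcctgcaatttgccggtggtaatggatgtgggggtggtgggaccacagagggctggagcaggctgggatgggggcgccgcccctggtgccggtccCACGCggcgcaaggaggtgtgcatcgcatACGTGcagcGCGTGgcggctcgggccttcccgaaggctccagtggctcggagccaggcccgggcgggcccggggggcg
P4ha1: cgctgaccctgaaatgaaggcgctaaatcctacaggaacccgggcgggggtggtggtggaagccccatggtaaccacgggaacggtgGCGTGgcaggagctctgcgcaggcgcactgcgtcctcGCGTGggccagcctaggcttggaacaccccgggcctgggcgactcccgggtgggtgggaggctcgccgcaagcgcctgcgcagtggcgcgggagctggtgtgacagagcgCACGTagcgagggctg
Plod1: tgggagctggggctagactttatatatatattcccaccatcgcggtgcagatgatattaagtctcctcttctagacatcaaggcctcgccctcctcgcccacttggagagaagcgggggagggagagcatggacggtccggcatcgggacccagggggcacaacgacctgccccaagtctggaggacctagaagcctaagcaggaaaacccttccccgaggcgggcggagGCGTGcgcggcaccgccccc
The P4ha2 and P4ha1 windows each held 1 ACGTG and 2 GCGTG, and the Plod1 window held 0 ACGTG and 1 GCGTG. Windows not shown, of genes not called in input without the block, held matches too. Plod3 had 1 ACGTG and 3 GCGTG, and P4hb had 1 ACGTG and 1 GCGTG. A P3h1 window had 2 GCGTG, and another P3h1 window had 2 ACGTG. Of 32851 promoter windows of the same length, 16.6% held ACGTG, 28.2% held GCGTG and 38.6% held either. A match describes the letters in the window and is not a measured binding site. For Plod1 the bases after the table's start were not found in an annotated transcript, so its place relative to the transcript is uncertain.

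P4ha2, an alpha subunit of prolyl 4-hydroxylase less abundant than P4ha1, fell in all 3 fractions. It stood at 7.95, 9.82 and 8.09 CPM in shDap5 inputs, against 28.1, 30.9 and 28.2 CPM in NSi inputs. On light polysomes it stood at 5.41, 5.11 and 3.82 CPM in shDap5, against 11.8, 15.03 and 8.8 CPM in NSi. On heavy polysomes it stood at 18.4, 14.1 and 13.0 CPM in shDap5, against 52.4, 48.1 and 30.4 CPM in NSi. Every shDap5 library lay below every NSi library of its fraction. The log2 change was -1.75 (SE 0.23, edgeR adjusted p = 0.000133) in input, -1.31 (SE 0.23, edgeR adjusted p = 0.00368) on light and -1.53 (SE 0.23, edgeR adjusted p = 0.00102) on heavy polysomes. Between libraries of the same number it was lower in shDap5 by 1.65 to 1.82 in input (log2 of the CPM ratio -1.82, -1.65 and -1.80). The light call was lost without NSi 2 (log2 -1.09, edgeR adjusted p = 0.0629), and the heavy call with the 6 heavy libraries fitted alone (-1.57, edgeR adjusted p = 0.0541). P4ha3, a further alpha subunit named here for that complex, was not called in any fraction. Its log2 changes were -0.303, 0.253 and -0.285 in input, light and heavy (edgeR adjusted p = 0.671, 0.793 and 0.708).

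P4ha1, an alpha subunit more abundant than P4ha2, was lower in shDap5 in each of the 9 comparisons of libraries with the same number, 3 per fraction. The fractions share arms and numbers, so these are not 9 independent replicates. How many of all tested genes did the same was not counted. P4ha1 was not called in the fit without the block. It stood at 177, 130 and 195 CPM in shDap5 inputs, against 222, 227 and 231 CPM in NSi inputs. On heavy polysomes it stood at 172, 169 and 131 CPM in shDap5, against 365, 308 and 152 CPM in NSi. The arms did not overlap in input and overlapped on heavy polysomes, where NSi 3 lay below 2 of the shDap5 libraries. P4ha1 thus changed on the log2 scale by -0.44 (SE 0.24, edgeR adjusted p = 0.357) in input, -0.44 (SE 0.24, edgeR adjusted p = 0.407) on light and -0.81 (SE 0.25, edgeR adjusted p = 0.0757) on heavy polysomes. With the number as a block within each fraction P4ha1 fell in input (-0.46, edgeR adjusted p = 0.0391) and on heavy polysomes (-0.73, edgeR adjusted p = 0.00427). Of the alternative fits, 2 of 13 called P4ha1 in input and 4 of 12 on heavy polysomes. Without NSi 3 the heavy difference was also called (-1.10, edgeR adjusted p = 0.00798), as it was by DESeq2 (-0.82, adjusted p = 0.0263).

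The beta subunit P4hb was not called in any comparison of the arms. It stood at 610, 497 and 638 CPM in shDap5 inputs, against 536, 529 and 567 CPM in NSi inputs, so the arms overlapped. The log2 change was 0.10 in input (95% interval -0.30 to 0.49; edgeR adjusted p = 0.841), 0.28 on light (-0.11 to 0.67; edgeR adjusted p = 0.497) and -0.18 on heavy polysomes (-0.57 to 0.21; edgeR adjusted p = 0.672).

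Relative to P4ha1 in the same library, P4ha2 was also lower in shDap5. For every 100 P4ha1 counts there were 4.49, 7.53 and 4.15 P4ha2 counts in shDap5 inputs, against 12.7, 13.6 and 12.2 in NSi inputs. On light polysomes there were 6.91, 6.79 and 5.99 in shDap5, against 11.5, 13.2 and 11.3 in NSi, and on heavy polysomes 10.7, 8.37 and 9.88 in shDap5, against 14.4, 15.6 and 20 in NSi. The arms did not overlap in any fraction. The log2 ratio differed by -1.30 in input, -0.87 on light and -0.78 on heavy polysomes. The exact two-sided permutation p was 0.1 in each, the smallest that 3 libraries against 3 can give, so this test could not reach 0.05. This ratio does not depend on library depth or scaling.

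**Figure D2:**
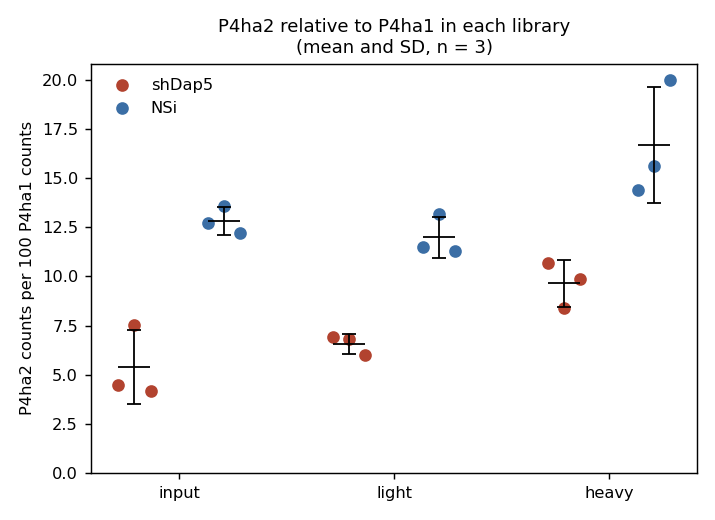
P4ha2 counts per 100 P4ha1 counts (linear axis from 0) in each library, by fraction and arm, with the group mean and SD (n = 3). The shDap5 libraries range from 4.15 to 10.7 and the NSi libraries from 11.3 to 20.

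P3h1, which hydroxylates prolines at the 3-position in a complex with Crtap and Ppib, was lower in shDap5 inputs without being called in the fit without the block. It stood at 12.7, 18.6 and 13.8 CPM in shDap5 inputs, against 22.3, 23.2 and 21.1 CPM in NSi inputs. For P3h1 the fit gave -0.56 (SE 0.20, edgeR adjusted p = 0.107) in input, -0.09 (SE 0.20, edgeR adjusted p = 0.897) on light and -0.48 (SE 0.20, edgeR adjusted p = 0.227) on heavy polysomes. The arms did not overlap in input or on heavy polysomes and overlapped on light polysomes. With the block within each fraction P3h1 fell in input (-0.58, edgeR adjusted p = 0.00273) and on heavy polysomes (-0.48, edgeR adjusted p = 0.0125). Of the alternative fits, 4 of 13 called P3h1 in input, and only this 1 of 12 on heavy polysomes. In input it also fell without the library shDap5 input 2 (-0.74, edgeR adjusted p = 0.0336). Its partners Crtap and Ppib, named here for that complex, were at log2 -0.30 and 0.02 in input, and neither was called (edgeR adjusted p = 0.199 and 0.975).

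P3h4 was the 1 gene of the 8 that rose, and it did so in all 3 fractions. It belongs to the prolyl 3-hydroxylase family, and in mouse tissue it is known to work in a complex with P3h3 and the Plod1 product that hydroxylates lysines of the collagen helix. It stood at 6.39, 8.18 and 6.27 CPM in shDap5 inputs, against 2.36, 2.14 and 2.24 CPM in NSi inputs. On light polysomes it stood at 8.14, 12.8 and 12.9 CPM in shDap5, against 1.45, 2.73 and 2.93 CPM in NSi. On heavy polysomes it stood at 12.9, 12.9 and 14.3 CPM in shDap5, against 2.54, 2.49 and 5.66 CPM in NSi. All shDap5 libraries lay above all NSi libraries of their fraction. For P3h4 the fit gave 1.63 (SE 0.31, edgeR adjusted p = 0.00307) in input, 2.25 (SE 0.32, edgeR adjusted p = 0.000658) on light and 1.90 (SE 0.31, edgeR adjusted p = 0.00196) on heavy polysomes. The heavy call was lost when the 6 heavy libraries were fitted alone (1.88, edgeR adjusted p = 0.0634). The level rested on 326 to 500 counts in shDap5 inputs and 133 to 151 counts in NSi inputs. P3h3, chosen after its values were seen, averaged 9.89 ± 0.99 CPM in shDap5 and 7.94 ± 1.16 CPM in NSi inputs (SD, n = 3 each; log2 0.32, edgeR adjusted p = 0.546).

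Plod1, the lysyl hydroxylase of helical lysines, fell in input and on heavy polysomes. It stood at 19.0, 23.9 and 19.6 CPM in shDap5 inputs, against 39.6, 39.7 and 35.6 CPM in NSi inputs. On light polysomes it stood at 12.7, 16.2 and 13.5 CPM in shDap5, against 16.8, 24.0 and 18.7 CPM in NSi. On heavy polysomes it stood at 30.9, 48.6 and 30.6 CPM in shDap5, against 66.3, 75.3 and 47.3 CPM in NSi. The arms did not overlap in input or on light polysomes, and on heavy polysomes shDap5 2 lay above NSi 3. The log2 change was -0.88 (SE 0.21, edgeR adjusted p = 0.013) in input, -0.49 (SE 0.21, edgeR adjusted p = 0.235) on light and -0.78 (SE 0.21, edgeR adjusted p = 0.0397) on heavy polysomes. With the block within each fraction Plod1 fell on light polysomes too (-0.49, edgeR adjusted p = 0.0115), the 1 call there among 12 alternative fits. The input call was lost without shDap5 1 (edgeR adjusted p = 0.0987), shDap5 3 (0.0698) or NSi 1 (0.0701). The heavy call was lost without shDap5 1 (0.179), shDap5 3 (0.204), NSi 1 (0.155) or NSi 2 (edgeR adjusted p = 0.242), and with the heavy libraries fitted alone (0.322).

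Plod2, the lysyl hydroxylase of telopeptide lysines, was not called in the fit without the block. It lay lower in shDap5 in every pair of libraries with the same number. These pairs are not independent replicates, because the fractions share arms and numbers, and how many of all tested genes did the same was not counted. It stood at 94.99, 77.6 and 101 CPM in shDap5 inputs, against 128, 139 and 139 CPM in NSi inputs. On heavy polysomes it stood at 45.2, 56.2 and 32.5 CPM in shDap5, against 94.7, 106 and 41.7 CPM in NSi. The arms did not overlap in input, and on light and heavy polysomes NSi 3 lay within the shDap5 range. Plod2 thus changed on the log2 scale by -0.57 (SE 0.27, edgeR adjusted p = 0.259) in input, -0.65 (SE 0.28, edgeR adjusted p = 0.237) on light and -0.86 (SE 0.28, edgeR adjusted p = 0.0991) on heavy polysomes. With the block within each fraction it fell in all 3, at -0.58 (edgeR adjusted p = 0.0067), -0.63 (0.00678) and -0.78 (0.00146) in input, light and heavy. Of the alternative fits, this one included, 2 of 13 called it in input, 1 of 12 on light and 4 of 12 on heavy polysomes. Without NSi 3 the heavy difference was -1.17 (edgeR adjusted p = 0.00948), and DESeq2 also called it (-0.87, adjusted p = 0.0419). Plod2 shares 346 bases of exon with Gm38391 on the opposite strand, and whether the counting used strand is not given in the sources used here.

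Plod3, which both hydroxylates lysines and adds sugars to them, had the smallest input difference of the 3 lysyl hydroxylases. It stood at 130, 120 and 142 CPM in shDap5 inputs, against 135, 145 and 135 CPM in NSi inputs. On heavy polysomes it stood at 195, 212 and 187 CPM in shDap5, against 294, 267 and 229 CPM in NSi. The arms overlapped in input and did not overlap on heavy polysomes. The log2 change was -0.08 (SE 0.14, edgeR adjusted p = 0.813) in input, 0.12 (SE 0.14, edgeR adjusted p = 0.762) on light and -0.41 (SE 0.14, edgeR adjusted p = 0.111) on heavy polysomes. With the block within each fraction it fell on heavy polysomes (-0.41, SE 0.10, edgeR adjusted p = 0.0108), and DESeq2 called it there as well (-0.43, adjusted p = 0.022). These were the 2 of 12 alternative fits that called it there. Plod3 shares 315 bases of exon with Znhit1 on the opposite strand. Znhit1 stood at 64.7 ± 23.7 CPM in shDap5 and 52.5 ± 14.2 CPM in NSi heavy libraries (SD, n = 3 each), and its part in the Plod3 values was not tested.

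**Figure D3:**
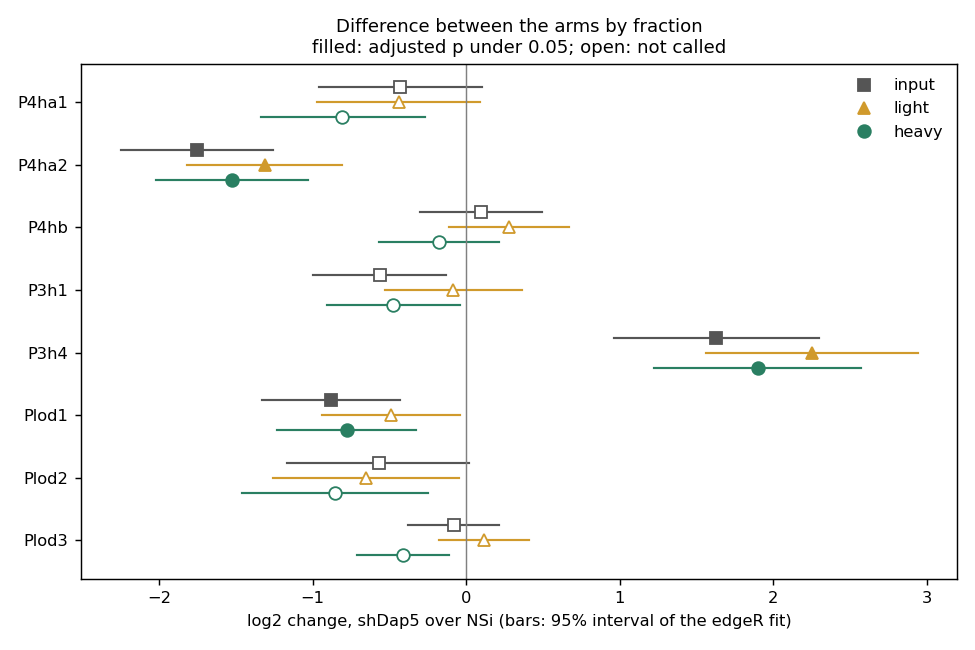
Log2 change, shDap5 over NSi, of the 8 tested genes in input, light and heavy polysomes, with 95% intervals of the edgeR fit without the block. Filled symbols have an adjusted p under 0.05: P4ha2 and P3h4 in all 3 fractions and Plod1 in input and heavy.

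Whether the arms differed more on polysomes than in whole lysate was tested as the difference of 2 differences. By edgeR 0 of 15072 genes were called on heavy relative to input, on light relative to input or on heavy relative to light (0% each), with 295, 320 and 181 genes at an unadjusted p under 0.05. DESeq2 also called 0 in each. None of the 8 genes was called, and the median of their values was -0.09 on heavy relative to input, 0.29 on light relative to input and -0.36 on heavy relative to light. P4ha2 was at 0.23 on heavy relative to input (95% interval -0.46 to 0.91) and 0.44 on light relative to input (-0.25 to 1.14). P3h4 was at 0.27 (-0.66 to 1.2) on heavy relative to input and 0.62 (-0.31 to 1.56) on light relative to input. Of the 8 genes, Plod3 on heavy relative to light had the lowest unadjusted p, 0.014, at -0.53 (95% interval -0.95 to -0.11, edgeR adjusted p = 1). For P4ha2 and P3h4 these intervals hold both 0 and values of 0.91 or more.

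Most of these mRNAs were a larger share of heavy than of light polysomes in both arms. In shDap5, edgeR called 6 of the 8 genes higher on heavy than on light polysomes, where it called 44.5% of all tested genes in either direction and 24.3% as higher. In NSi it called 7 of the 8 higher, where it called 52.6% of all tested genes and 27% as higher. The median log2 difference of the 8 genes was 0.93 in shDap5 and 1.33 in NSi, beside 0.01 and -0.03 over all tested genes. P4ha2 differed most, by 1.66 in shDap5 (SE 0.23, edgeR adjusted p = 3.38e-05) and 1.88 in NSi (SE 0.23, edgeR adjusted p = 4.6e-06). P3h4 was called in neither arm, at 0.25 in shDap5 (SE 0.30, edgeR adjusted p = 0.517) and 0.60 in NSi (SE 0.31, edgeR adjusted p = 0.113). P4hb was at 0.40 in shDap5 (SE 0.18, edgeR adjusted p = 0.0772; 0.63 and 0.0354 without shDap5 3) and rose by 0.86 in NSi (SE 0.18, edgeR adjusted p = 0.00075). The Plod2 calls, 0.74 in shDap5 and 0.94 in NSi, were lost without any 1 of the 3 shDap5 numbers (edgeR adjusted p = 0.0615 to 0.223) and without NSi 1 (0.0702) or NSi 2 (0.0602). Of the 14 thiol oxidoreductases and chaperones of the endoplasmic reticulum, 10 in shDap5 and 13 in NSi were likewise higher on heavy polysomes, with medians of 1.13 and 1.28.

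**Figure D4:**
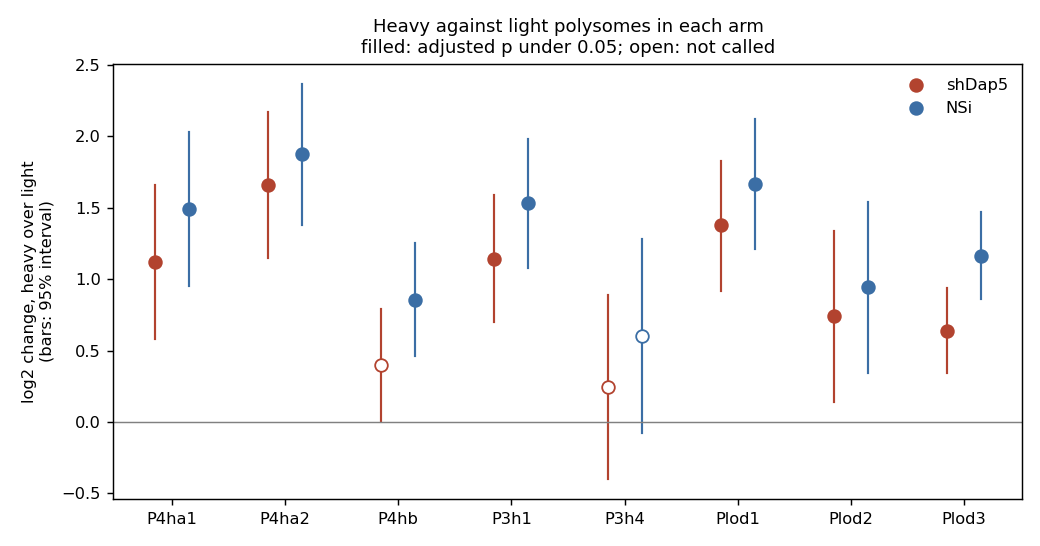
Log2 difference between heavy and light polysomes for the 8 tested genes in each arm, with 95% intervals of the edgeR fit. All 16 values are above 0; open symbols (P3h4 in both arms and P4hb in shDap5) were not called.

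Across the 18 libraries, the levels of the hydroxylases moved together to different degrees. Pearson's r of log2 CPM was 0.92 between P4ha2 and Plod1, 0.93 between P3h1 and Plod1, and 0.91 between P4hb and Plod3. P3h4 had r = -0.58 with P4ha2 and -0.56 with Plod2, while Plod2 and P4hb had r = -0.01. These values are descriptions over libraries that share arms and fractions. Among 10307 compared genes, those with a profile most like that of P4ha2 were Gpc4, a glypican of the cell surface (r = 0.961), Ugdh, which makes UDP-glucuronate for glycosaminoglycans (r = 0.959), and Adamts8, a secreted metalloprotease (r = 0.956). Those most like P3h4 were Ltk, a receptor tyrosine kinase (r = 0.951), Sp6, a transcription factor of epithelia (r = 0.947), and Krt14, a keratin of basal epithelium (r = 0.934).

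Some of the collagen chains, the substrates of these enzymes, were called lower. Of 33 chains on the list 23 were tested. In input 4 fell and 1 rose, on light 3 fell and 0 rose, and on heavy polysomes 3 fell and 0 rose. Over all tested genes 6.95%, 3.47% and 3.95% were called in input, light and heavy. Log2 changes lay above 0 for 6, 13 and 8 of the 23 chains. The list's median log2 change was -0.19 in input, 0.07 on light and -0.22 on heavy polysomes. Col5a1, which nucleates fibrils, stood at 28.8, 60.5 and 31.0 CPM in shDap5 inputs, against 141, 138 and 134 CPM in NSi inputs, and so fell by 1.78 on the log2 scale (SE 0.29, edgeR adjusted p = 0.00095). Col6a1, of beaded filaments, fell by 1.43 in input on the log2 scale (SE 0.28, edgeR adjusted p = 0.00427). Col5a1 and Col6a1 also fell on light and heavy polysomes, but each of those 4 calls was lost in 4 or 5 of the 6 fits that left out an arm and number (highest edgeR adjusted p 0.173 and 0.205 for Col5a1 and 0.226 and 0.154 for Col6a1). Col11a1, a minor fibrillar chain, was at 0.0164 to 0.0577 CPM in shDap5 inputs, at or below the level of 3 counts, against 0.981 to 1.24 CPM in NSi inputs, and it fell in all 3 fractions. Col14a1, which binds to fibril surfaces, fell in input to 0.131 to 0.18 CPM in shDap5, against 0.531 to 0.796 CPM in NSi, and Col15a1, of basement membranes, rose to 1.73 to 2.03 CPM in shDap5, against 0.467 to 0.643 CPM in NSi. The Col14a1 call was lost without NSi 1 (edgeR adjusted p = 0.0541). The Col15a1 call was lost in 3 of the 6 fits that left out an arm and number (highest edgeR adjusted p 0.0963, without NSi 1). Under the block within each fraction 6, 5 and 4 chains were lower and 2, 1 and 1 higher in input, light and heavy. The same fit called 22.1%, 16.1% and 18.3% of all tested genes.

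Among other enzymes of the same steps, Loxl3 and Colgalt2 fell in input. Of the 8 further hydroxylases, collagen sugar transferases and lysyl oxidases, all tested, 2 fell and 0 rose in input and none was called on light or heavy polysomes. Over all tested genes 6.95%, 3.47% and 3.95% were called in input, light and heavy. The list's median was -0.29, -0.36 and -0.36 in input, light and heavy. Loxl3, a lysyl oxidase, stood at 11.6, 18.2 and 10.1 CPM in shDap5 inputs, against 44.0, 30.3 and 38.0 CPM in NSi inputs (log2 -1.49, SE 0.42, edgeR adjusted p = 0.036). Colgalt2, a collagen galactosyltransferase, stood at 0.0192 to 0.0657 CPM in shDap5 and 0.219 to 0.327 CPM in NSi inputs. Both calls were lost in 5 of the 6 fits that left out an arm and number (highest edgeR adjusted p 0.114 for Loxl3 and 0.139 for Colgalt2). Loxl4, chosen after its values were seen, was the most abundant lysyl oxidase measured, at 385 ± 52.3 CPM in shDap5 and 330.2 ± 13.7 CPM in NSi inputs (SD, n = 3 each; log2 0.22, edgeR adjusted p = 0.782). With the block within each fraction the list had 0, 1 and 0 genes higher and 2, 2 and 3 lower in input, light and heavy. That fit called 22.1%, 16.1% and 18.3% of all tested genes.

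Folding, export and propeptide processing factors gave 20 tested genes of 26, of which 0 rose and 2 fell in input, 3 fell on light and 3 fell on heavy polysomes, with medians of -0.07, 0.02 and -0.13. Sparc, a collagen-binding matrix protein, averaged 81.8 ± 9.45 CPM in shDap5 and 184 ± 1.97 CPM in NSi inputs (SD, n = 3 each; log2 -1.17, edgeR adjusted p = 0.000755). Fkbp14, a prolyl isomerase of the endoplasmic reticulum, fell by 0.88 in input on the log2 scale (SE 0.20, edgeR adjusted p = 0.0122). Adamts14, a procollagen N-proteinase, fell by 0.68 on light polysomes (edgeR adjusted p = 0.0359). Both calls were lost in 4 of the 6 fits that left out an arm and number (highest edgeR adjusted p 0.082 and 0.227, without NSi 2). Of the 14 thiol oxidoreductases and chaperones, Pdia5 fell in input (-0.73, SE 0.17, edgeR adjusted p = 0.0122) and on heavy polysomes (-0.67, edgeR adjusted p = 0.0327), 1 gene in each, with list medians of -0.08 and -0.30. The Pdia5 calls were lost in 3 and 4 of the 6 fits that left out an arm and number (highest edgeR adjusted p 0.0846 and 0.212, without NSi 2). For the ascorbate, iron, copper and 2-oxoglutarate that the hydroxylases and oxidases need, 15 of 16 genes were tested and 0 were called in input or heavy. On light polysomes Idh2, a mitochondrial source of 2-oxoglutarate, rose by 0.50 (SE 0.13, edgeR adjusted p = 0.0436) and Slc31a2, a copper transporter, fell by 0.96 (SE 0.20, edgeR adjusted p = 0.0121). The Idh2 call was lost in all 6 fits that left out an arm and number (highest edgeR adjusted p 0.187, without NSi 2). The Slc31a2 call was lost in 3 of them (highest edgeR adjusted p 0.0689, without shDap5 1). Of 28 tested hypoxia response genes of 29, 2 fell and 0 rose in each fraction, where 6.95%, 3.47% and 3.95% of all tested genes were called in input, light and heavy, with list medians of -0.10 in input, -0.13 on light and -0.30 on heavy polysomes. They were Eno2, an enolase, at 7.6 ± 2.04 CPM in shDap5 and 26.7 ± 4.06 CPM in NSi inputs, and Egln3, which marks the hypoxia-inducible factors for decay, at 76.3 ± 16.8 CPM in shDap5 and 138.1 ± 5.86 CPM in NSi inputs (SD, n = 3 each). Their log2 changes in input were -1.81 and -0.86 (edgeR adjusted p = 4.18e-05 and 0.00526). Without NSi 2 both light calls were lost (edgeR adjusted p = 0.0583 for Eno2 and 0.0939 for Egln3), and the heavy call of Egln3 was lost in 4 of the 6 fits that left out an arm and number (highest edgeR adjusted p 0.204). With the block within each fraction the hypoxia list had 6, 5 and 10 genes lower and 0, 2 and 2 higher in input, light and heavy, and the processing list had 7, 3 and 6 lower and 3, 2 and 1 higher. In that fit the thiol oxidoreductases had 2, 2 and 3 lower and 0 higher in each fraction, and the cofactor list 2, 4 and 4 lower and 2 higher in each. These counts stand beside the 22.1%, 16.1% and 18.3% of all tested genes that the same fit called, and nothing particular to a list is read from them.

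**Figure D5:**
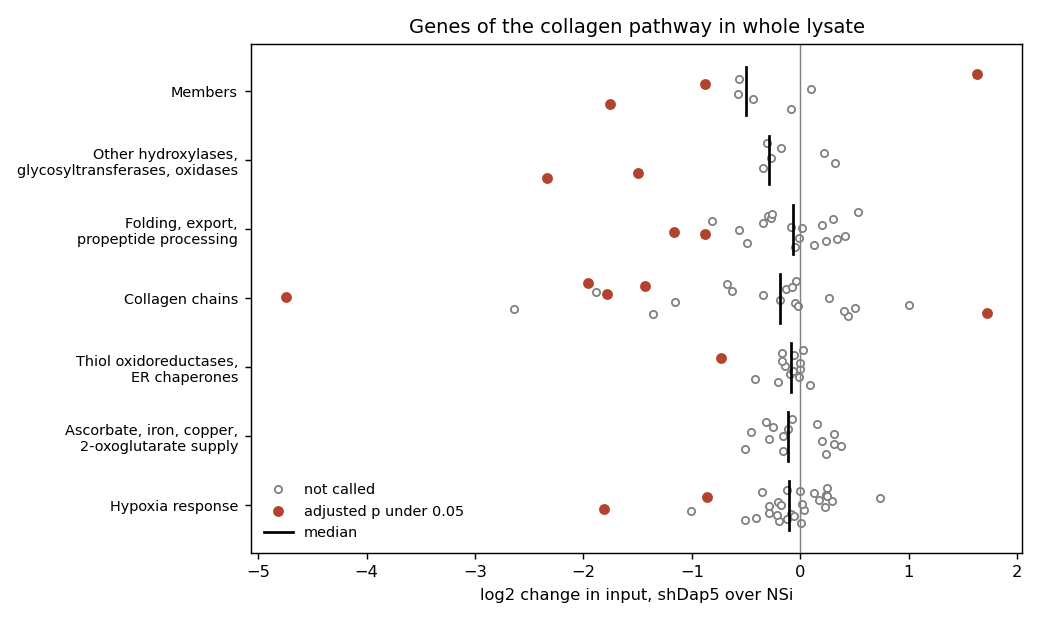
Log2 change in input, shDap5 over NSi, of each tested gene of the lists described, 1 point per gene, with the list median as a bar; filled points have an adjusted p under 0.05. The 2 filled points of the hydroxylating and crosslinking genes (Members) below 0 are P4ha2 at -1.75 and Plod1 at -0.88, and the leftmost collagen chain is Col11a1, whose fitted value depends on the prior count because its shDap5 levels are near 0.

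Markers of other cell types were measured beside these genes in input, where 6.95% of all tested genes were called. The 8 epithelial markers summed to 2741 to 3456 CPM in shDap5 inputs and 1879 to 2171 CPM in NSi inputs, and 4 of the 7 tested rose, led by Krt14 (log2 2.30, edgeR adjusted p = 3.5e-05). The 8 fibroblast markers summed to 62.5 to 124 CPM in shDap5 and 46 to 52.4 CPM in NSi inputs; Lum was at 0 in both arms' inputs, 4 genes were tested and the matricellular Postn rose (log2 2.09), while Dcn, Pdgfra and Fap were at -0.22, -0.47 and -0.55 and not called (list median -0.34). The 6 endothelial markers summed to 0.9 to 1.62 CPM in shDap5 and 2.57 to 3.39 CPM in NSi inputs, with 2 of 5 tested genes, Vwf and Tie1, lower. Without NSi 2 neither of them was called (edgeR adjusted p = 0.0533 for Vwf), and the Tie1 call was lost in 4 of the 6 fits that left out an arm and number (highest edgeR adjusted p 0.0947). The 6 macrophage markers summed to 36.1 to 73.8 CPM in shDap5 and 56.2 to 62.5 CPM in NSi inputs, with 1 of 4 tested genes, Csf1r, higher (log2 2.21), while Cd14, Cd68 and Mrc1 were at 0.24, -0.81 and -0.81 and not called (list median -0.29). The part of these markers in the differences of the hydroxylases was not tested.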

How the data were processed

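Per the labels, polyadenylated RNA of 4T1 cells was made into stranded libraries from whole lysate and from pooled light and heavy fractions of sucrose gradients. The authors deposited unnormalized read counts, 1 table of gene symbols for each library. Reads were aligned with Bowtie to mouse build mm9, per the submitters' processing notes; aligner version, counting program, annotation and strand use were not stated there. Of the 35976 symbols, 27 were written as spreadsheet dates, and none of those is named.

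Counts were tested with edgeR 4.0.16 in R 4.3.3 (robust quasi-likelihood F test, TMM). Low genes were removed by filterByExpr at its count minimum of 10 and total minimum of 15. One model held the 18 libraries and the means of the 6 groups, leaving 12 residual degrees of freedom; the common biological coefficient of variation was 0.227. P-values were adjusted by Benjamini-Hochberg over the 15072 tested genes of a comparison. The standard error (SE) is the log2 change divided by the square root of F. The scripts were tested on simulated data. Alternatives were DESeq2 1.42.0, its size factors, no filter, fits of the compared groups alone, blocks by replicate number and leaving out each arm and number.

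Whether replicate numbers pair libraries was checked over 10308 genes from deviations from the group means. The same number in both arms of a fraction had r of 0.133 to 0.826 (median 0.555, 9 of 9 pairs over 0.1), against -0.741 to 0.203 for unlike numbers. Deviations within a group cancel out, so the r of unlike numbers is not separate evidence of pairing. Pairing was weakest in input, with r of 0.133, 0.319 and 0.375 for numbers 1, 2 and 3. Between NSi input 3 and shDap5 input 1 it was 0.203. The block within each fraction was added after seeing the data, as was leaving out the library shDap5 input 2 alone. That block left fewer than the 12 residual degrees of freedom of the fit without it. Between fractions of an arm 11 of 18 pairs exceeded 0.1. Libraries of the same group differed beyond counting error in every pair, by a chi-square of at least 8.82 per degree of freedom.

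The genes and lists were chosen with earlier results of these data known. Named were all 10 genes, Eif4g2, from each list at most 6 genes called in a comparison of the arms, and the 3 genes with the highest r to P4ha2 and P3h4; others are said to be chosen after their values were seen or are named as partners of a complex. Exon lengths came from GENCODE on build GRCm38 and promoters from RefSeq on GRCm38.p6, and no count coordinates are given.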

Additional observations from a re-analysis of the deposited data

Results flagged for a closer look

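Plod3 was the one gene of the 8 whose arms differed in opposite directions on the 2 polysome fractions in every pair of libraries with the same number. On light polysomes it was higher in shDap5, with log2 CPM ratios of 0.15, 0.09 and 0.11 for numbers 1, 2 and 3, and on heavy polysomes it was lower, with -0.60, -0.33 and -0.29. The test of the difference itself gave a log2 value of -0.527 on heavy relative to light (SE 0.19, unadjusted p = 0.014, edgeR adjusted p = 1), or -0.52 with the replicate number as a block within each fraction (edgeR adjusted p = 0.837). It ranged from -0.647 to -0.351 with each arm and number left out. The difference was therefore not called over all genes.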

How the results depend on the processing

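Of 768 values of the 8 genes recomputed under 14 alternatives, 712 kept their direction and their side of the threshold, 22 became called, 18 lost a call and 16 changed sign, none of which was called. Counts of called genes moved as follows. With the replicate block (1 effect per number over all libraries) edgeR called 1798 genes in input, 1013 on light and 1122 on heavy polysomes, and 4 of the 8 genes were lower on heavy. With the replicate block within fraction the counts were 3330, 2431 and 2765, with 5, 3 and 6 of the 8 lower. With the compared groups fitted alone they were 2218, 219 and 56, with 4 of the 8 lower in input and 0 lower and 0 higher on heavy. DESeq2 called 995 on light and 1050 on heavy, with 5 of the 8 lower on heavy. With each arm and number left out, the counts ranged from 419 to 2005 in input, 158 to 440 on light, 172 to 777 on heavy, 0 to 13 on heavy relative to input, 0 to 11 on light relative to input, 4227 to 5476 for shDap5 heavy against light and 5525 to 6881 for NSi heavy against light; of the 8 genes, 1 to 3 were lower in input, 0 to 1 on light and 1 to 4 on heavy. Without shDap5 input 2 alone, 1712 genes were called in input, 9 on heavy relative to input and 8 on light relative to input. The cause was not tested. Values that changed sign lay near 0: P4ha1 on light relative to input (-0.002) was 0.015 with DESeq2 size factors, 0.012 without the filter, 0.036 with the block within arm, 0.03 with the block within fraction, 0.014 with DESeq2 and -0.182 to 0.204 with arms and numbers left out. With these left out, P3h1 on light ranged from -0.28 to 0.061, Plod1 on heavy relative to input from -0.042 to 0.223 and Plod2 on light relative to input from -0.288 to 0.092. The P4ha2 to P4ha1 log2 ratio stayed between -1.57 and -1.14 in input, -0.91 and -0.80 on light and -0.88 and -0.64 on heavy. DESeq2 size factors shifted the median of all genes by at most 0.068 in size (-0.068).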

Other observations

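The 14 Lox counts of the library NSi light 2 were the most that Lox had in any library. Fkbp10, a collagen chaperone of the endoplasmic reticulum chosen after its values were seen, was at 0.0608, 0.158 and 0.102 CPM in shDap5 light and 0.127, 1.77 and 0.322 CPM in NSi light libraries, so NSi light 2 was also its highest library.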
